A study of Saccharomyces cerevisiae with 18 samples.

Results

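The binding of the Ste12 variant S158H was compared with that of wild-type Ste12 over all 2188 calling-card peaks of the series, with 2 libraries for each protein. A protein was said to have a site at a peak when each of its 2 libraries counted 3 or more UMIs (tagged insertions) there, which made 472 peaks sites of wild type, of S158H or of both. Ste12 is the yeast transcription factor that the pheromone MAPK cascade switches on for mating and that acts with Tec1 on the genes of invasive growth. S158H changes 1 amino acid in its DNA-binding domain and was chosen for the study because yeast with it mate like wild type but are defective for invasion. The question was which places in the genome the variant still marks, which it has left and which it has taken up.

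In calling cards a DNA-binding protein is fused to a transposase, here that of PiggyBac, and the transposon lands beside the place where the fusion is bound. Each donor plasmid carries a random tag, or UMI, by which separate insertions can be counted without the copies that PCR makes of them. The fusions were expressed from the galactose-inducible GAL1 promoter on a plasmid in BY4705, a MATα laboratory strain of Saccharomyces cerevisiae. Wild-type and S158H cells alike kept their own chromosomal STE12, so these libraries measure where an overexpressed fusion goes in cells that also hold the normal protein. RNA-seq was done in another strain, BY4705 with STE12 deleted, which carried wild-type or S158H STE12 under its own promoter on a low-copy plasmid, with 5 libraries each. No transposase-only library is part of the values below, and nothing in the labels says whether the 2 libraries of a protein came from separate cultures, so p-values measure the spread between libraries, which may be technical.

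The UMIs in peaks numbered 12778 and 6165 in wild-type replicates 1 and 2, and 5904 and 6066 in S158H replicates 1 and 2. A count of 0 allows up to 3 UMIs, which is 0.0235% and 0.0487% of the wild-type libraries and 0.0508% and 0.0495% of those of S158H, for counting error only. Wild-type replicate 2 stood apart in how few places it touched: it had at least 1 UMI at 393 peaks, while replicate 1 had one at 1168 and the S158H libraries, of about the same total, at 665 and 684. Across peaks the UMIs of the 2 libraries of a protein correlated with r = 0.964 in wild type and 0.978 in S158H (Pearson), while the mean of wild type against the mean of S158H gave 0.0465. On a log2 scale, where the largest peaks weigh less, these were 0.845, 0.851 and 0.118. These values run across peaks that share a library, and are a description.

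Of the 2188 peaks, 45 (2.06%) were kept as sites in both proteins, 230 (10.5%) were lost, being sites of wild type only, and 197 (9.00%) were gained, being sites of S158H only. S158H thus held 45 of the 275 wild-type sites, or 16.4%, and wild-type sites made up 18.6% of its own 242. Of the gained sites 142 lay on the 16 nuclear chromosomes and 55 on the mitochondrial sequence, where wild type had 0 sites. The classes come from the counts themselves and carry no test.

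**Figure D1:**
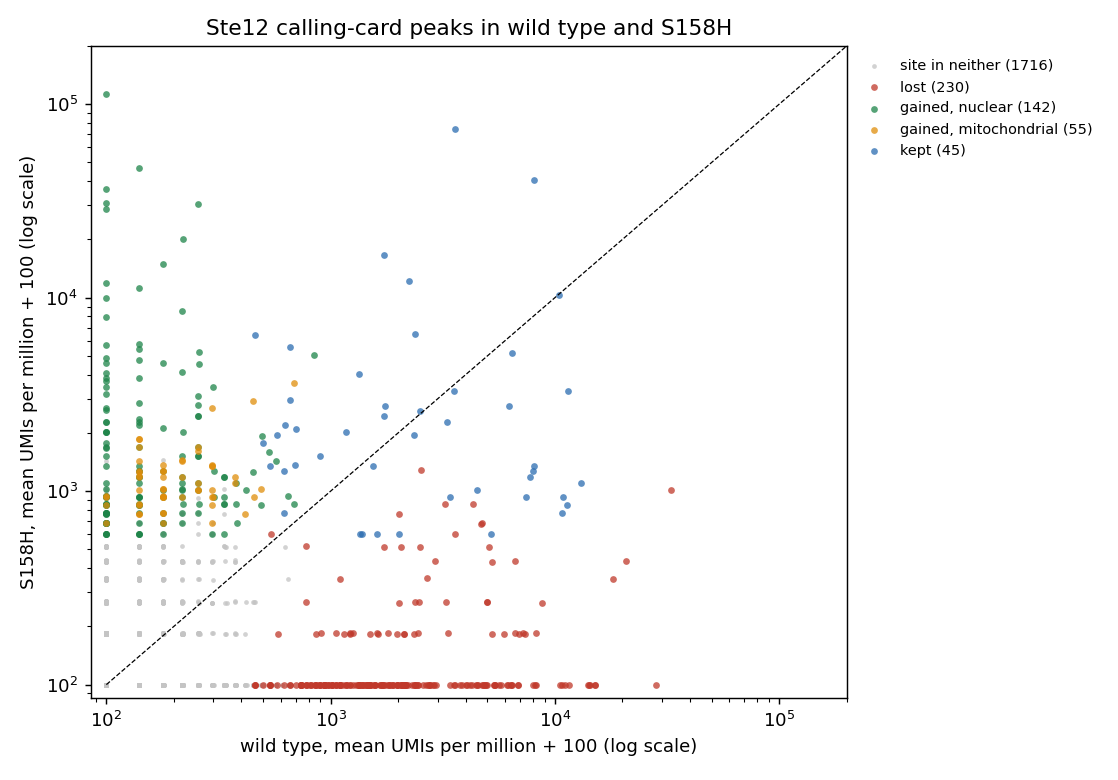
Each point is 1 of 2188 peaks, placed by its mean UMIs per 1000000 plus 100 in wild type (horizontal, log scale) and in S158H (vertical, log scale), and coloured by class; the dashed line marks equal values. Most of the 230 lost sites lie along the floor, the 142 nuclear gained sites lie above the line at the left, from the floor of wild type up to some near the line, and the 45 kept sites spread between.

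The change took in most of the insertions and not merely the weak peaks. Lost sites held 66.3% and 78.4% of the UMIs of the wild-type libraries but 1.37% and 1.43% of those of S158H. Nuclear gained sites held 2.25% and 0.324% in wild type and 57.5% and 56.5% in S158H. The kept sites held 15.5% and 18.8% in wild type and 23.1% and 23.4% in S158H, so the 4 libraries placed a similar, smaller part of their insertions there. S158H was also the more concentrated of the pair: 16 peaks held 50% of the UMIs in each of its libraries, against 61 and 44 peaks in wild type, and its 10 largest peaks held 43.2% and 44.4%, against 17.3% and 19.8%.

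**Figure D2:**
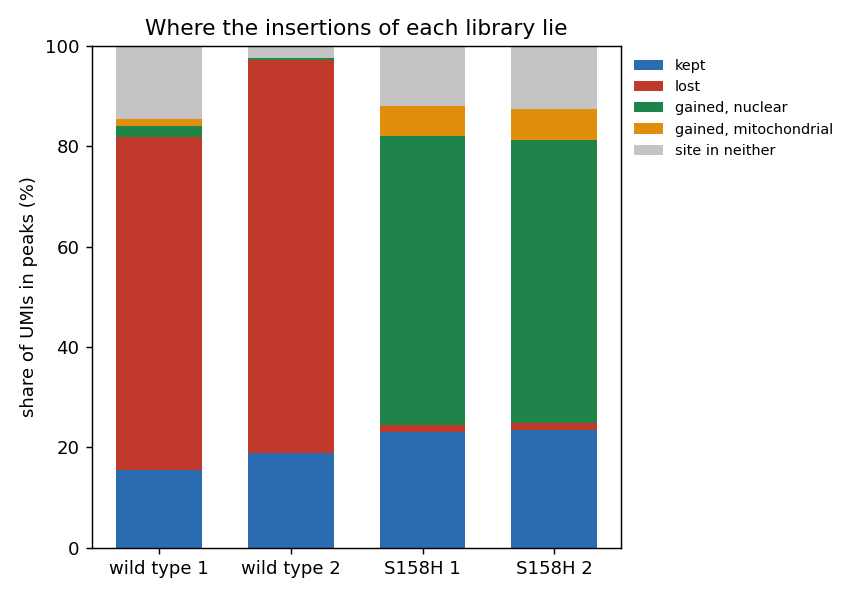
Bars give the percentage of each library's UMIs in peaks that fell into kept, lost, nuclear gained and mitochondrial gained sites and into peaks that were a site of neither protein. Lost sites fill most of both wild-type bars (66.3% and 78.4%) and nuclear gained sites most of both S158H bars (57.5% and 56.5%).

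By limma on log2(UMIs per 1000000 + 100), over the 505 peaks with at least 3 UMIs in at least 2 of the 4 libraries, 234 peaks (46.3%) were lower in S158H and 31.3% were higher at an adjusted p below 0.05. All of the lower peaks were nuclear, and the higher ones were 123 nuclear and 35 mitochondrial peaks. Lost sites made 218 of the lower calls, and nuclear and mitochondrial gained sites made 111 and 35 of the higher ones. Lost and gained sites were defined by the same counts, so the direction of their calls was largely fixed by that choice. These shares and p-values are therefore no separate evidence for the classes. DESeq2 on the recovered UMIs made 179 and 83 calls, and leaving out S158H replicate 1, S158H replicate 2 or wild-type replicate 2 took the higher calls to 73, 75 and 104. Log2 differences below are on this scale, which understates changes of low peaks, and where a protein has 0 UMIs the difference depends on the added 100 and sets no bound.

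The classes were set beside all peaks by their place relative to genes. A promoter window, from 1000 bp before to 200 bp after a coding start, covered 36 of 45 kept sites (80%), 167 of 230 lost sites (72.6%) and 102 of 142 nuclear gained sites (71.8%), against 64.6% of all nuclear peaks. The middle of the site lay at a median of -270 bp from the nearest coding start for kept sites, -160.5 bp for lost and -119 bp for nuclear gained sites, a minus sign standing for upstream. Annotated gene spans were overlapped by 35.6%, 35.7% and 33.8% of kept, lost and nuclear gained sites and by 47.8% of all nuclear peaks. The shares of lost and gained sites lay close together on each of these measures, and no test was made between the classes.

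The largest kept site lay between SAG1, which encodes the alpha-agglutinin that sticks MATα cells to their partner, and APL1, a subunit of the AP-2 clathrin adaptor, on chromosome X of R64 from 445330 to 445752. It held 50 and 19 UMIs in wild type and 412 and 475 in S158H, which are 0.391% and 0.308% of the wild-type and 6.98% and 7.83% of the S158H UMIs. Both S158H libraries lay far above both of wild type, by 21.2-fold in mean share and 4.37 on the log2 scale (SE 0.25, adjusted p = 0.0012, limma).

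The FUS1 site, on chromosome III from 71628 to 71814 at the start of the gene for a membrane protein of cell fusion, held 23 and 9 UMIs in wild type and 100 and 97 in S158H. Its groups did not overlap, and it rose 10.1-fold in mean share (log2 difference 3.27, SE 0.19, adjusted p = 0.0012). At CSS3, on chromosome XV from 17883 to 18103, the counts were 74 and 63 in wild type and 226 and 258 in S158H, with a log2 difference of 2.38 (SE 0.39, adjusted p = 0.013); the call was lost when either S158H library was left out, with adjusted p of 0.16 and 0.15. At AGA1, which anchors the agglutinin of the opposite mating type, the counts were 15 and 19 in wild type against 102 and 42 in S158H. The groups did not overlap there either, but the spread of the S158H libraries left the difference of 2.46 (SE 0.76) short of the threshold (adjusted p = 0.057).

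Another group of mating promoters stayed sites at a small part of their former share. AFR1, which shapes the mating projection, shares its site on chromosome IV from 616602 to 616977 with SSS1, a subunit of the translocon, and went from 121 and 75 UMIs to 4 and 6 (log2 difference -3.56, SE 0.27, adjusted p = 0.0022). PRM3, which is needed for nuclear fusion, went from 132 and 68 to 5 and 3 at its site (log2 difference -3.84, adjusted p = 0.0022). The site before STE12 itself went from 116 and 41 to 9 and 5 (log2 difference -2.68, adjusted p = 0.01). At all 3 of these sites the 2 proteins' libraries were clear of each other, with S158H the lower. Summed over the promoter window, the calls of PRM3 and STE12 were lost when either wild-type library was left out, and that of STE12 also without S158H replicate 2 (adjusted p from 0.052 to 0.11).

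FUS2, which acts in cell fusion with FUS1, moved the other way from it. Its site held 61 and 33 UMIs in wild type and 3 and 3 in S158H (log2 difference -3.10, adjusted p = 0.00095). CHS7, the chaperone that lets chitin synthase leave the endoplasmic reticulum, shares a site with the ribosomal protein gene RPL42B that held 130 and 77 against 23 and 15 (log2 difference -1.83, adjusted p = 0.015). That call was lost when any of the 4 libraries was left out (adjusted p from 0.055 to 0.12) and with TMM library sizes (adjusted p = 0.072). At a site with no window, on chromosome XII from 795205 to 795308, the counts went from 138 and 94 to 5 and 7 (log2 difference -3.57). All these S158H counts were below those of both wild-type libraries.

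The remaining sites of the 10 largest were held at shares that overlapped between the proteins. KAR5, a nuclear fusion gene, had 83 and 88 UMIs in wild type and 55 and 67 in S158H, a log2 difference of 0.07 (SE 0.49, adjusted p = 0.89). TEC1, the partner of Ste12 in invasive growth, had 64 and 47 against 25 and 36, a log2 difference of -0.30 (SE 0.34, adjusted p = 0.46). This does not show that the proteins were equal there. Over the 45 kept sites 16 were called lower, 12 higher and 17 neither, with a median log2 difference of -0.09, and with TMM library sizes 10 and 6 were called.

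The lost sites were led by KAR4, the transcription factor that works with Ste12 on the genes of nuclear fusion. Its site, on chromosome III from 27806 to 27976, also falls in the window of the peroxisome gene PEX34 and held 347 and 237 UMIs in wild type, the largest share of any peak in replicate 2, at 3.84%. In S158H it held 2 and 9. It counts as lost because S158H replicate 1 was below 3 UMIs, so it is a site reduced 36.0-fold and not an empty one (log2 difference -5.28, SE 0.78, adjusted p = 0.01); without S158H replicate 1, wild-type replicate 1 or wild-type replicate 2 the adjusted p was 0.056, 0.11 and 0.12.

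Most lost sites had no insertion at all in the variant. Of the 230, 176 had 0 UMIs in both S158H libraries and a further 31 had at most 1 in either, while 16 had 3 or more in 1 of the 2. The strongest empty site lay inside HDA3, a histone deacetylase subunit, 1495 bp into the gene on chromosome XVI from 894156 to 894382. It held 355 and 177 UMIs, 2.78% and 2.87% of the wild-type libraries, and 0 and 0 in S158H, which is at least 56.3-fold lower, taking 3 UMIs per library as the limit of a count of 0. No promoter window reached it.

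Other empty sites lay beside genes of metabolism and of protein synthesis. The window of IDP1, which encodes the mitochondrial isocitrate dehydrogenase that uses NADP, and of CBS1 held a site with 196 and 91 UMIs in wild type and 0 and 0 in S158H. A site 324 bp into RRT6, in the windows of TIP20 and of RPL9A, a ribosomal protein gene, held 195 and 91 against 0 and 0. That of TDH1, a glyceraldehyde-3-phosphate dehydrogenase gene, held 191 and 82 against 0 and 0. The sites of RGI1 (144 and 102 UMIs) and of RSM10, for a mitochondrial ribosomal protein (136 and 75), were likewise empty in S158H.

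Cell wall and signalling genes were among them too. FKS3 and SCW10, the latter for a cell wall protein of the glucanase kind, share a pair of lost sites of 244 and 105 and of 135 and 110 UMIs, where S158H had 1 and 2 and then 0 and 0. STE20, the kinase at the head of the mating and invasion MAPK cascades, lost a site of 113 and 81 UMIs to 0 and 0, and LRG1, a GTPase-activating protein for Rho1, one of 118 and 72. AGP3, an amino acid permease gene, lost one of 120 and 73. At these sites both wild-type libraries held 72 UMIs or more and neither S158H library held over 2.

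The largest site of S158H was one that wild type did not touch. It lies between DIG2, which encodes an inhibitor of Ste12, and the peroxisome gene PEX29 on chromosome IV from 1416934 to 1417036. It held 0 and 0 UMIs in wild type and 717 and 639 in S158H, which are 12.1% and 10.5% of all its UMIs and at least 314-fold above the limit of a count of 0 in wild type (log2 difference 10.14, SE 0.16, adjusted p = 0.00086). K150A had 4 and 3 UMIs there and K150I 7 and 8, the other variants 2 or fewer. DIG1, for the second inhibitor of Ste12, gained a far smaller site, of 0 and 0 UMIs against 11 and 6.

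The next gained sites were also nearly private to S158H among the 4 libraries. The site of COX23, a gene of cytochrome oxidase assembly, DMA1 and TOM71, for a mitochondrial import receptor, held 1 and 0 UMIs in wild type and 257 and 301 in S158H (chromosome VIII, 341606 to 341708). A site inside GIP1, a gene of meiosis, held 0 and 0 against 247 and 189 (chromosome II, 329295 to 329397). CYC8, for a general corepressor, and RAD16, for a repair protein, share a site of 0 and 0 UMIs in wild type and of 2.47% and 3.64% of the UMIs of S158H. The COX23 site, at 4.35% and 4.96%, was above the largest peak of either wild-type library (2.78% and 3.84%).

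Among the other large gained sites, that of GIC1, for an effector of the polarity GTPase Cdc42, lay at -80 bp and held 2 and 0 UMIs in wild type and 109 and 68 in S158H. A site with no window, of 1 and 1 UMIs against 122 and 117, lay 908 bp downstream of the nearest coding start, which is that of CDC42. ERC1 and RRM3 share a site of 4 and 0 against 176 and 187. The remaining sites of the 10 largest were those of INA1 (0 and 0 against 137 and 206), of the ribosomal protein gene RPL12B (0 and 0 against 75 and 67) and of GAL80, the repressor of the galactose genes (1 and 0 against 57 and 77). The 10 were chosen from these same counts by their S158H share, so their direction was fixed by the choice. Log2 differences of the 10 ran from 6.39 to 10.14, all called, and those of ERC1 and GIC1 missed the threshold when either S158H library was left out (adjusted p from 0.056 to 0.082).

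Weak gained sites need more care than strong ones. Of the 142 nuclear gained sites 55 had 0 UMIs in both wild-type libraries, and 40 had 3 or more in wild-type replicate 1 but not in replicate 2. At 41 the lower S158H library had exactly 3 UMIs, the minimum, and 93 peaks of the table had 2 in the lower S158H library and so fell just outside. Counted only where wild type had 0 UMIs in both libraries, gained sites numbered 59, mitochondrial ones included. With wild-type replicate 2 left out they numbered 132, and kept and lost sites 110 and 449. A wild-type site then needed 3 UMIs in replicate 1 alone. Under that looser rule kept and lost sites could only rise in number and gained sites only fall.

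Some weak S158H sites sat on peaks that were strong in another variant. At 13 peaks where K150A had at least 100 UMIs in both libraries and over 10 times the share of every other protein, S158H had a UMI at all 13, 67 and 90 in total. Wild type had 103 and 43 UMIs at 9 and 5 of these peaks, and K150I 6 and 5 at 4 and 5 of them. At the 9 such peaks of K150I, S158H again had UMIs at all 9, 33 and 45 in total, while K150A had 10 and 15 and wild type 46 and 39, at 8 and 2 of the peaks. At 17 such peaks of K152L it had 2 and 1 UMIs, at 2 peaks and 1 peak. Over 10 times the larger share of wild type and S158H was held by another variant at 20 of the 142 nuclear gained sites, K150A at 11 and K150I at 9, at 5 kept and at 3 lost sites. Without these the kept, lost and gained sites numbered 40, 227 and 177. The part that these peaks have in the weak S158H counts was not tested.

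The S158H libraries had the highest mitochondrial shares of the 14 libraries. UMIs in the 75 mitochondrial peaks made up 6.84% (95% Wilson interval 6.23% to 7.51%) and 6.89% (6.28% to 7.56%) of the S158H libraries, 404 and 418 UMIs, and 1.74% (1.53% to 1.98%) and 0.0487% (0.0166% to 0.143%) of those of wild type, 222 and 3 UMIs. The means were 6.87% ± 0.034 (SD, n = 2) and 0.893% ± 1.19 (SD, n = 2). Both S158H values were above both of wild type, but the exact two-sided permutation test gave p = 0.33, the smallest that 2 against 2 allows. The other variants lay between 0.0719% in A160P replicate 1 and 2.57% in K146D replicate 2.

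**Figure D3:**
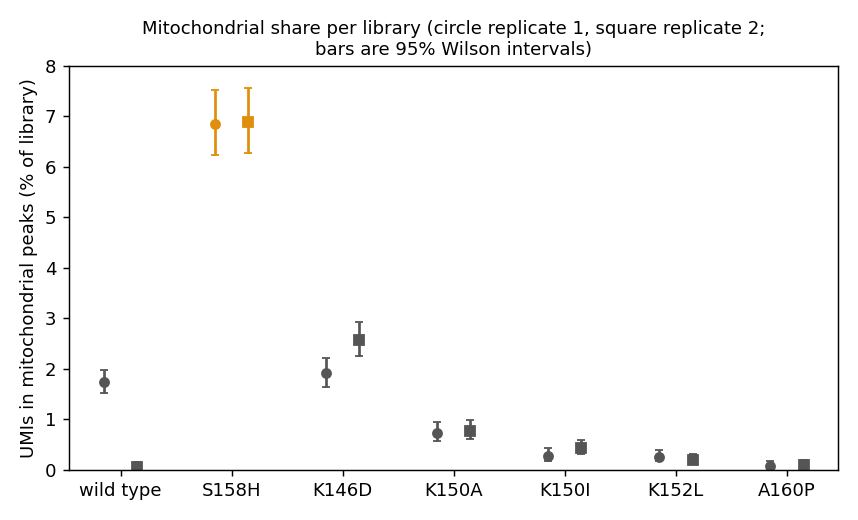
Points give the percentage of each library's UMIs in peaks that fell in the 75 mitochondrial peaks, with 95% Wilson intervals for counting error, for wild type and the 6 variants. S158H stands at 6.84% and 6.89%, and the wild-type libraries differ from each other, at 1.74% and 0.0487%.

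The mitochondrial insertions were spread thinly along the molecule. The 55 sites ran from position 3774 to 83593 and held from 3 to 22 UMIs in S158H replicate 1 and from 3 to 20 in replicate 2, with a median of 6 in both. Only 4 had 10 or more in both libraries, and the largest, from 82036 to 82532, held 22 and 20. In wild-type replicate 1, 51 of the 55 had a UMI, with a median of 2 and a highest value of 15, and in replicate 2 only 2 had one. By limma 35 of the 55 were called higher in S158H and 20 were not called; the sites were chosen from these same counts, so their direction was fixed by the choice. Wild-type replicate 2, which had fewer peaks with a UMI than any of the other 3 libraries, is part of these counts; against wild-type replicate 1 alone, the S158H mean share was 5.13 percentage points higher.

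Of the 55, 19 overlapped an annotated mitochondrial gene and 36 lay between genes. COX1, for a subunit of cytochrome oxidase, had 3 sites, 1 of them also in its intron gene AI5_ALPHA. The site from 23442 to 23542 held 10 and 0 UMIs in wild type and 8 and 3 in S158H, and that from 23741 to 23851 held 7 and 1 against 3 and 7. By share of UMIs, wild-type replicate 1 lay between the 2 S158H libraries at both sites. Its share was 0.0783% against 0.1355% and 0.0495% at the first, and 0.0548% against 0.0508% and 0.115% at the second. COB, for cytochrome b, had 3 sites, whose S158H counts lay between 3 and 9 and whose wild-type counts were 0 or 1. VAR1, for a protein of the mitochondrial ribosome, had 3, the 21S ribosomal RNA gene 3, ATP8 1 and transfer RNA genes 6. The site at the transfer RNA gene tI(GAU)Q, from 70040 to 70296, held 5 and 0 against 12 and 19. Another variant had a site at 14 of the 55, most often K146D, at 12.

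Grouped by promoter window, which adds up the peaks of a window, wild type marked 276 genes and S158H 195, of which 62 were shared, 214 were marked by wild type only and 133 by S158H only. Over 429 windows tested by limma, 222 (51.7%) were lower in S158H and 122 (28.4%) higher, and the median log2 difference was -2.15. Lists of genes are read below against these shares; they were written with earlier results of these data known.

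**Figure D4:**
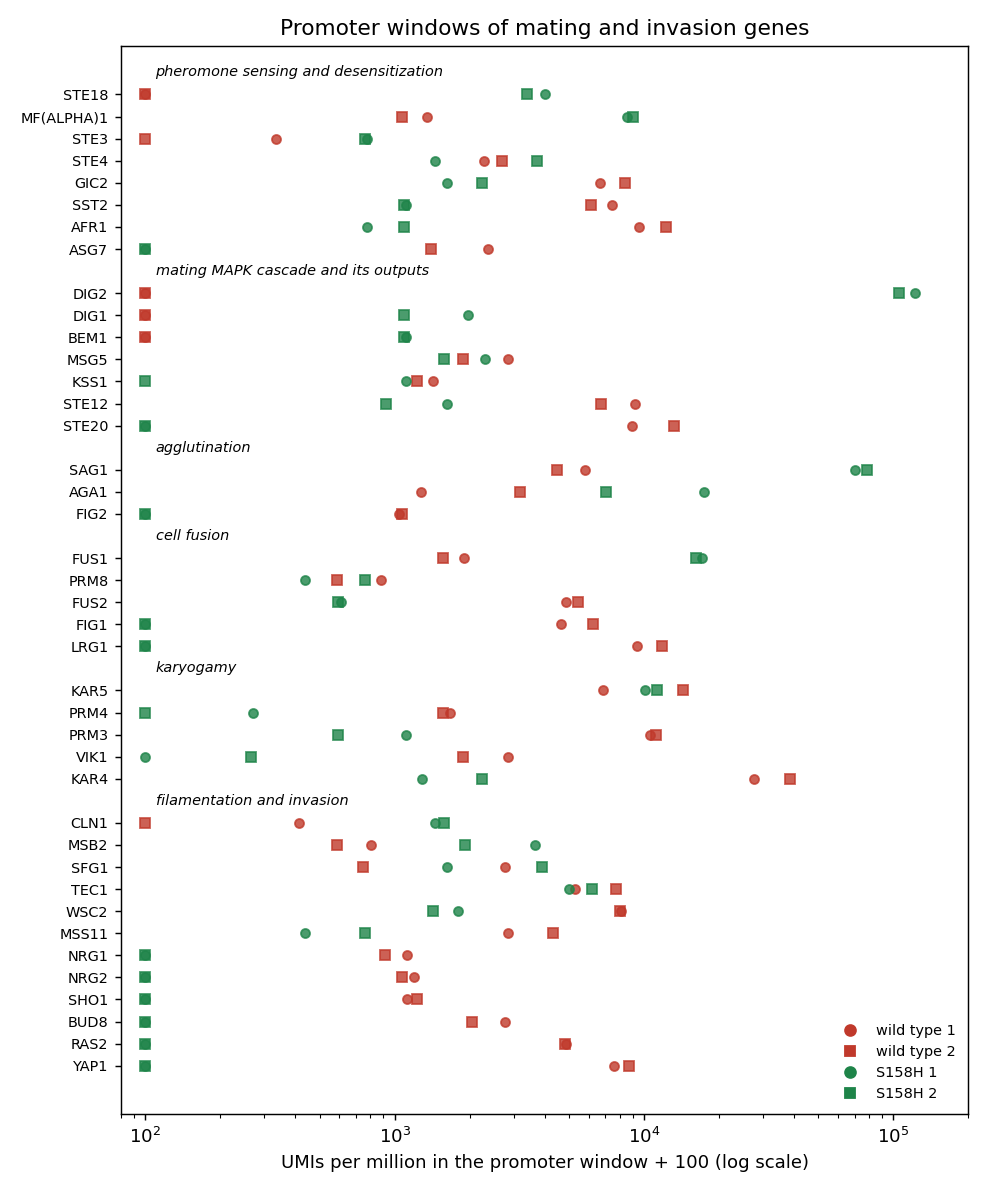
Points give UMIs per 1000000 plus 100 (log scale) in the promoter windows of the mating and invasion genes that were marked by wild type or S158H, with 4 libraries per gene. DIG2, SAG1, FUS1 and STE18 lie to the right in S158H, while YAP1, RAS2, STE20 and LRG1 drop to the floor of 100, which stands for 0 UMIs.

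Of 33 listed genes of filamentation and invasion 12 were tested, and 8 were lower and 2 higher in S158H, with a median log2 difference of -2.97. Of the 12, 6 held no UMI in S158H and 6 kept some. YAP1, a regulator of the oxidative stress response, went from 96 and 53 UMIs to 0 and 0, RAS2, the GTPase that feeds the cAMP and MAPK pathways of filamentation, from 61 and 29 to 0 and 0, and BUD8, a marker of the distal bud site, from 34 and 12 to 0 and 0. SHO1, a membrane sensor of the filamentation and osmotic pathways, went from 13 and 7 to 0 and 0, and the repressor genes NRG1 and NRG2 from 13 and 5 and from 14 and 6 to 0 and 0. By DESeq2 the calls of SHO1, NRG1 and NRG2 were lost (adjusted p from 0.059 to 0.077).

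In the other 6 windows S158H kept UMIs. MSB2, the signalling mucin at the top of the filamentation pathway, had 9 and 3 UMIs in wild type and 21 and 11 in S158H (log2 difference 1.95, SE 0.44, adjusted p = 0.026); its kept peak held 7 and 3 against 4 and 4, and the rise sat in a neighbouring peak of 2 and 0 against 17 and 7. CLN1, a G1 cyclin gene, was called higher from 4 and 0 against 8 and 9, where K150A had 122 and 90. The MSB2 call was lost when any of the 4 libraries was left out (adjusted p from 0.051 to 0.19) and with TMM (0.14), and the CLN1 call without either S158H library (0.22 and 0.24) and by DESeq2 (0.058). MSS11, a regulator of the flocculin FLO11, had 35 and 26 UMIs against 2 and 4, a lower call that was lost when any library was left out (adjusted p from 0.052 to 0.11). WSC2, a cell wall sensor gene, fell from 102 and 49 to 10 and 8. TEC1 and SFG1 were not called.

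Genes of pheromone sensing were divided. Of 17 listed 8 were tested, with 4 lower and 2 higher and a median log2 difference of -1.03. STE18, for the gamma subunit of the pheromone G protein, went from 0 and 0 to 23 and 20 UMIs (log2 difference 5.20, SE 0.18, adjusted p = 0.00067). STE4, for its beta subunit, held 28 and 16 against 8 and 22 at a site where K150A had 407 and 445, and was not called. GIC2, for another effector of Cdc42, had 84 and 51 UMIs against 9 and 13 and was called lower, but not with TMM (adjusted p = 0.068) or without either wild-type library (0.072 and 0.084). SST2, which shuts off the G protein signal, fell from 94 and 37 to 6 and 6, and its main peak of 91 and 37 UMIs was left with 2 and 2, the other S158H UMIs lying at a peak where K150A had 249 and 220. ASG7, an a-specific gene that MATα cells keep silent, fell from 29 and 8 to 0 and 0.

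Of the mating MAPK cascade and its outputs 7 of 19 were tested, with 2 lower and 3 higher and a median of -0.28. The higher windows were DIG2, DIG1 and BEM1, the polarity scaffold, the last from 0 and 0 to 6 and 6 UMIs at a peak where K150A had 57 and 55. The DIG1 call was lost without either wild-type library (adjusted p of 0.069 and 0.062). The lower windows were STE20 and STE12. KSS1, the MAP kinase of filamentation, had 17 and 7 UMIs in wild type and 6 and 0 in S158H, and the difference between the S158H libraries left it uncalled (adjusted p = 0.26).

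In karyogamy 4 of 5 tested windows were lower and none higher, with a median of -3.74: KAR4 (353 and 237 UMIs against 7 and 13), PRM3, PRM4 (20 and 9 against 1 and 0) and VIK1 (35 and 11 against 0 and 1). What S158H held in the KAR4 window came partly from a second peak of 6 and 0 UMIs in wild type and 5 and 4 in S158H, where K150A had 132 and 106. Leaving out either wild-type library ended the calls of the KAR4, PRM3, PRM4 and VIK1 windows (adjusted p from 0.055 to 0.15). In cell fusion 3 of 6 tested were lower and 1 higher: FIG1, a gene of pheromone-induced calcium uptake, went from 58 and 38 to 0 and 0, and FUS1 was the one that rose. In agglutination the SAG1 window rose through the peak it shares with APL1. The peak at its own coding start went from 19 and 8 UMIs to 0 and 1. FIG2, an adhesin gene of mating, fell from 12 and 6 to 0 and 0.

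Cell wall and chitin genes had 8 of 13 tested windows lower and 3 higher, with a median of -1.83. CIS3, for a covalently bound cell wall protein, went from 90 and 40 UMIs to 0 and 0, and CHS3, the main chitin synthase gene, from 13 and 6 to 0 and 0. SKT5, for the activator of that enzyme, rose from 25 and 8 to 31 and 34 (log2 difference 1.70, SE 0.27, adjusted p = 0.01). The other windows called higher, UTR2 and MID2, rested on 3 to 10 UMIs per S158H library. The calls of SKT5 and UTR2 were lost without either S158H library (adjusted p from 0.087 to 0.19) and that of MID2 without any of the 4 (from 0.12 to 0.25), and with TMM SKT5 was not called (0.19) and the list had 6 lower and 2 higher. MID2 had its site on a peak with 283 and 440 UMIs in K150I, and UTR2 on one with 60 and 53 in K150A.

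Cytosolic ribosomal protein genes were split, with 5 lower and 4 higher of 12 tested among 138 listed, and a median of 1.11 against -2.15 over all windows. The 138 were picked by symbol and include RPP1, which is not a ribosomal protein gene and was not among the 12. RPL9A (214 and 97 UMIs against 0 and 0), RPS7B (42 and 31 against 0 and 0) and RPP1A were lower, and so were RPL42B and RPS14B. In the RPL9A window 195 and 91 of the wild-type UMIs lay at the peak inside RRT6. RPL12B, RPL31B (2 and 1 against 24 and 38), RPS1A (1 and 1 against 13 and 10) and RPS21B were higher, the last on 3 and 5 UMIs at a peak with 21 and 40 in K150A. Of 26 cell cycle genes 4 were tested: YOX1, a repressor of early cell cycle genes, went from 68 and 32 to 0 and 0, PCL2, a G1 cyclin gene, from 67 and 56 to 1 and 0, WHI5 was lower too, and CDC20, for an activator of the anaphase-promoting complex, rose from 1 and 0 to 20 and 28. Of 21 osmotic stress genes 2 were tested; SSK2, a kinase of the HOG pathway, fell from 65 and 62 to 1 and 0, and GPP1, a glycerol phosphatase gene, had 21 and 18 against 35 and 42. GPP1 was called higher (adjusted p = 0.028), but not with TMM library sizes (adjusted p = 0.24) or without either S158H library or wild-type replicate 1 (adjusted p from 0.069 to 0.18). Leaving out 1 library also ended the calls of PCL2, WHI5, SSK2, RPL42B, RPS14B, RPS21B and RPP1A (adjusted p from 0.052 to 0.14).

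In 12 windows, which hold 8 distinct sets of peaks since divergent or neighbouring genes share some, a lost and a gained site lay side by side; these windows were singled out after their values were seen. PUN1, a gene of the plasma membrane, lost a site of 269 and 124 UMIs at -48 bp, which was left with 2 and 2, and gained one of 0 and 0 against 63 and 55 at -653 bp, 605 bp away. In MF(ALPHA)1, which encodes the alpha-factor pheromone, the site at -388 bp went from 13 and 6 to 1 and 2 and that at -744 bp rose from 3 and 0 to 49 and 52. Summed over its window MF(ALPHA)1 was called higher (log2 difference 2.87, adjusted p = 0.0016), but with a window of 500 bp, which holds only the nearer peak, it was lower (log2 difference -1.69, adjusted p = 0.013).

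The same held on a smaller scale at PHO84, the high-affinity phosphate transporter gene, with 20 and 7 UMIs in wild type at -914 bp and 13 and 13 in S158H at -442 bp, each at a peak where the other protein had 0 and 0. GFA1, for the first enzyme of chitin precursor synthesis, had 10 and 4 against 0 and 0 at -292 bp and 4 and 0 against 15 and 13 at -561 bp. Over the genome 14 of 230 lost sites (6.09%) lay within 1000 bp of a nuclear gained site, against 2.56% of all nuclear peaks, so most lost sites had no gained site near them.

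**Figure D5:**
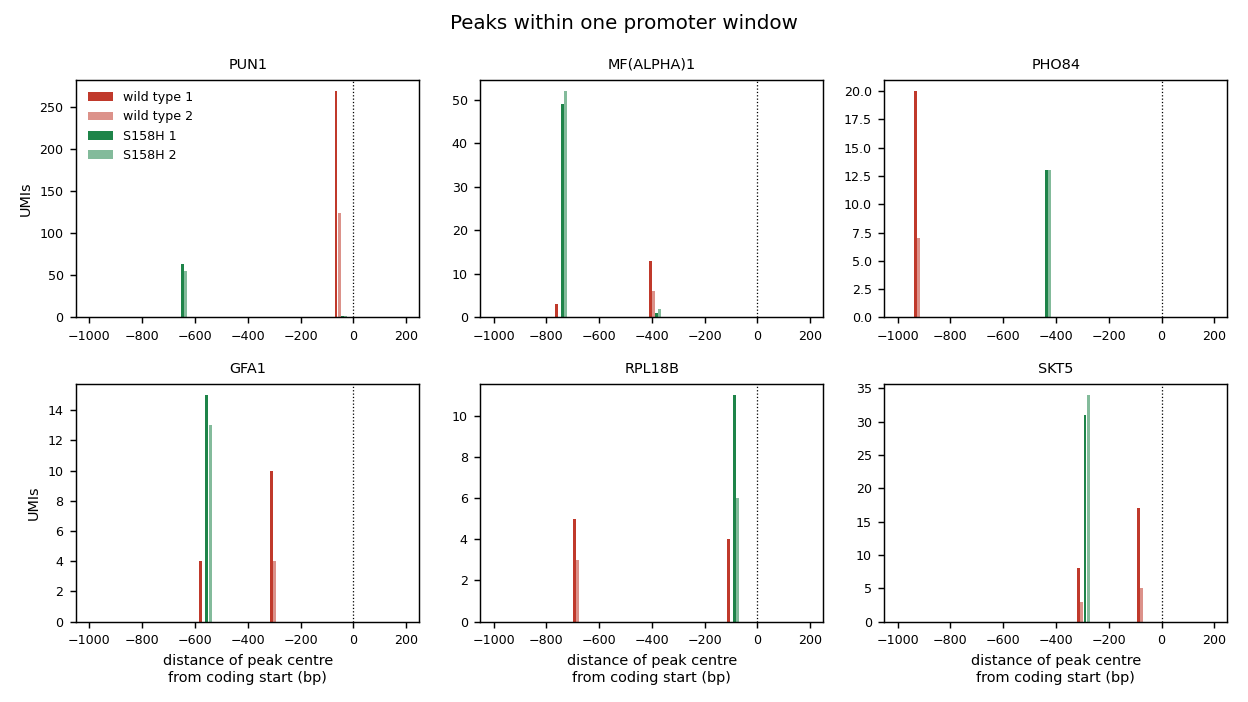
Bars give the UMIs of each of the 4 libraries at every peak in 6 promoter windows, placed by the distance of the peak's centre from the coding start (dotted line) and set side by side within a peak. In PUN1, MF(ALPHA)1, PHO84, GFA1 and RPL18B wild type and S158H mark different peaks, and in SKT5 the peak at -70 bp is marked by wild type alone (17 and 5 UMIs against 0 and 0).

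The classes were then looked up in the other 5 variants. Of the 45 kept sites, 36 were also a site of at least 1 of the other 5 variants and 6 of all 5, whereas 160 of the 230 lost sites, 68 of the 142 nuclear gained sites and 41 of the 55 mitochondrial ones were sites in no other variant. K150A and K150I, which mate like wild type as S158H does but are hyper-invasive, kept 21.5% and 17.5% of the wild-type sites. K150A shared 59 sites with S158H, 24.4% of those of S158H and 25.8% of its own, and K150I shared 45, 18.6% and 29.6%.

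Against K150A, over 419 peaks tested by limma, 166 (39.6%) were lower and 185 (44.2%) higher in S158H, and against K150I, over 351, 129 (36.8%) were lower and 203 (57.8%) higher. The DIG2 site was higher in S158H than in either, by 7.84 (SE 0.21, adjusted p = 0.00039) and 6.76 (SE 0.24, adjusted p = 0.00017) on the log2 scale. The SAG1 site, with 242 and 311 UMIs in K150A and 25 and 31 in K150I, was higher in S158H by 1.24 (adjusted p = 0.03) and 4.36 (adjusted p = 0.00034). The FUS1 site, with 22 and 20 and then 91 and 191 UMIs, was higher in S158H than in K150A by 2.74 (adjusted p = 0.001) and differed from K150I by -0.02 (SE 0.28, adjusted p = 0.95). The KAR4 site, with 41 and 33 and then 233 and 275, was lower in S158H, with log2 differences of -2.36 (adjusted p = 0.045) and -5.27 (adjusted p = 0.0031).

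The RNA of genes beside these sites was read next, from the other strain grown to exponential phase and not induced on galactose. RNA levels and insertion counts are unlike measures, so the sizes of their differences cannot be compared. In 5 wild-type and 5 S158H libraries with 1648904 to 3839794 UMIs each, edgeR's quasi-likelihood test over 6139 genes called 0 (0%) at an adjusted p below 0.05, with 179 at an unadjusted p below 0.05, and DESeq2 called 2. Deviations of same-numbered libraries correlated with r from 0.544 to 0.657 in replicates 1 to 3, but only 0.263 and 0.277 in replicates 4 and 5. TDH1 RNA was 229 and 2836 CPM in wild-type replicates 4 and 5 but 3320 and 612 CPM in those of S158H. UTR2 crossed likewise (731 and 247 against 262 and 799 CPM), while AFR1 did not (59.1 and 75.5 against 62.9 and 86.5 CPM). Pairs of unlike number were not examined. With replicate number as a block 23 genes (0.375%) were lower and 50 (0.814%) higher. In such bulk samples fewer cells of a type and less RNA per cell cannot be told apart. The alpha-cell markers STE3, MF(ALPHA)1, MF(ALPHA)2 and SAG1 were expressed, their list summing to 2759 to 4114 CPM in wild type and 2565 to 4169 in S158H, while MATALPHA1, which has a silent copy elsewhere in the genome, was listed at 0 in all 10 libraries. The 7 a-cell markers summed to 34.0 to 112 CPM and 37.6 to 71.1 CPM.

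Of the genes with a window kept, lost or gained, 58, 202 and 121 were tested for RNA, and 0 of each were called without the block. Their median log2 fold changes were -0.11, 0.01 and -0.01, and that of all genes tested was 0.00. With the block 2, 2 and 1 of them were called, 3.45%, 0.99% and 0.826%, against 1.19% of all genes. Lost and gained promoters thus gave few calls with the block, at shares near that of all genes. At an unadjusted p below 0.05 by edgeR without the block, the shares were 5.17% of kept, 4.95% of lost and 2.48% of gained. That of all genes was 2.92%. No test was made between these shares.

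For the DIG2 promoter, where binding rose most, the RNA was low in both strains. DIG2 had a lowest, median and highest level of 1.00, 1.71 and 3.02 CPM in the 5 wild-type libraries and 1.66, 1.96 and 2.09 CPM in the 5 of S158H (log2 fold change 0.07, SE 0.44, adjusted p = 1.00, edgeR), so the S158H values lay inside the wild-type range. PEX29, on the other side of that site, had 33.3 to 71.2 CPM and 38.1 to 70.4 CPM. At this depth only a large change of DIG2 RNA could have been seen.

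SAG1, whose largest site rose, and FUS1, whose site rose, had lower median RNA levels in S158H, with neither gene called. SAG1 RNA had a median of 1043 CPM (945.1 to 1576) in wild type and 874 CPM (723 to 1444) in S158H (log2 fold change -0.25, SE 0.23), and FUS1 RNA 56.4 CPM (49.9 to 77.4) and 41.0 CPM (30.4 to 57.0) (log2 fold change -0.48, SE 0.35). Both were lower in S158H in 5 of 5 pairs of same-numbered libraries, and neither was called with or without the block (adjusted p of 0.45 and 0.25 with it). KAR4, whose main site was reduced, had RNA of 60.2 to 83.0 CPM in wild type and 42.9 to 59.7 CPM in S158H. It was lower in 5 of 5 pairs and its ranges did not overlap, but it was not called (log2 fold change -0.37, SE 0.13; adjusted p = 1.00, and 0.086 with the block).

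The 5 genes with a kept, lost or gained window that the block fit called were KSS1, CHS7, PRY3, STE12 and UBP9, the last named after its values were seen. Their calls rest on matching libraries by replicate number, which was weak for replicates 4 and 5. KSS1 RNA was 26.8 to 29.9 CPM in wild type and 14.9 to 24.3 CPM in S158H, with no overlap (log2 fold change -0.66, SE 0.13, adjusted p = 0.018 with the block and 0.6 without). CHS7 RNA was 117.5 to 151 CPM and 79.3 to 121 CPM (log2 fold change -0.39, adjusted p = 0.03 with the block). PRY3, for a cell wall protein, whose window went from 15 and 12 UMIs to 0 and 0, had more RNA in S158H, 26.7 to 49.6 CPM against 23.9 to 34.2 (log2 fold change 0.43, adjusted p = 0.03 with the block), and UBP9, for a ubiquitin protease, rose by 0.37 (adjusted p = 0.025). STE12 RNA, which here comes from the plasmid that carries the variant, was 128.5 to 184 CPM in wild type and 162 to 280 CPM in S158H (log2 fold change 0.45, SE 0.11, adjusted p = 0.04 with the block and 1.00 without).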

How the data were processed

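Calling-card reads were mapped to R64 by the authors, who called peaks with MACS2. The peak table they deposited (2188 peaks, 14 libraries) is described as UMI counts, but its values are on a natural log scale: ln(1 + UMIs per 1000000). STAR, Trim Galore 0.4.1 and bcl2fastq are also named in the submitters' processing notes. Whether peaks were called per library, and whether their positions count from 0 or 1, is not given in the sources used here. UMIs were recovered as whole numbers within 0.001 for 100% of 30632 values. The deposited RNA-seq table holds raw counts of UMIs for each gene.

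Peaks were assigned to promoter windows with RefSeq's R64 gene table (6002 protein-coding genes). Peaks and windows were tested with limma 3.58.1 on log2(UMIs per 1000000 + 100) with Benjamini-Hochberg adjustment. The plan had been to fit all 14 libraries together; on simulated counts that fit made too many false calls, so wild-type and S158H libraries were fitted alone, and the larger fit became an alternative. RNA was tested with edgeR 4.0.16 (quasi-likelihood, TMM, 35 libraries), with DESeq2 1.42.0 as an alternative in both. CPM are after TMM.

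Sites named were the 10 largest kept, lost and gained, the 10 strongest calls each way, the mitochondrial sites and listed genes that were marked; 1 of the kept sites is not reported here. Members and lists were chosen with earlier results of these data known. The block on RNA replicate number took same-numbered libraries as matched. Deviations of same-numbered wild-type and S158H libraries had r from 0.544 to 0.657 in replicates 1 to 3, and 0.263 and 0.277 in replicates 4 and 5. Pairs of unlike number were not examined, so matching by number was not established for replicates 4 and 5. Transposase-only libraries and DNA sequences were not analysed here.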

Additional observations from a re-analysis of the deposited data

Results flagged for a closer look

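In groups of 5 RNA libraries, 3 levels among the 10 genes whose RNA is described stood far from the rest of their group by Dixon's test, which chance does in about 1 group in 20. SAG1 RNA was 1576 CPM in wild-type replicate 3 and 1444 CPM in S158H replicate 3, each the highest of its group by a wide gap. KAR4 RNA was 83.0 CPM in wild-type replicate 4, above the other 4 wild-type libraries.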

How the results depend on the processing

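Kept, lost and gained sites numbered 99, 280 and 418 at a minimum of 1 UMI; at a minimum of 10 UMIs they numbered 11, 150 and 57. At a minimum of 500 UMIs per 1000000 29 were kept. Counted only where the other protein had 0 UMIs, 59 were gained. Leaving out 1 library gave 46 to 110 kept, 220 to 449 lost and 132 to 274 gained; the highest kept and lost counts came without wild-type replicate 2. Thinning to the smallest library, merging peaks and leaving out mitochondrial peaks or those strong in another variant, the last chosen after seeing the data, stayed within 1.5 times. Higher peaks numbered 83 by DESeq2 and 73 to 125 with 1 library left out (lower 173 to 198); for windows these were 67 to 103 higher and 171 to 184 lower. The fit of all 14 libraries called 253 peaks lower and 222 higher. TMM shifted the median log2 difference of peaks by -0.11 and left 125 higher peaks, 100 higher windows, and 10 lower and 6 higher of the kept sites; of 57 called among 69 named windows 7 lost their call with TMM, 12 by DESeq2 and 23 when 1 library was left out. No call changed sign under TMM. The MF(ALPHA)1 window turned to -1.69 with a window of 500 bp, the only called direction of the named peaks and windows to turn. Genes called in RNA numbered 2 by DESeq2, 73 with the replicate block, 1 in the fit of wild type and S158H alone, and 0 to 1 with 1 library left out. The mitochondrial difference was 5.13 to 6.82 percentage points with 1 library left out. Calling-card replicate numbers did not pair the libraries (r = 0.0336); with a replicate block 239 peaks were lower and 179 higher, and 231 and 130 windows. The planned search for Ste12 motifs was not run, since no genome sequence was used here. With 5904 to 12778 UMIs a library, differences below a few UMIs per site cannot be seen.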
